A study of Caenorhabditis elegans with 91 samples.

Results

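The gene rde-4 of the nematode Caenorhabditis elegans was followed through every library of a study of small RNAs made in neurons and their effect across generations. It was taken by its name, as 1 gene among the 21965 that the small RNA tables list and the 30199 that those of mRNA list. No measured value entered that rule, though earlier results of these data were known. It is the gene that the study removed with the mutation ne299 and put back in neurons with 3 transgenes. Its mRNA count gives the level of all transcripts of the gene in a sample, and its small RNA count the number of small RNAs that matched it. The 91 libraries held 64 of small RNA (47 of whole animals, 6 of neurons and 11 of gonads) and 27 of mRNA (12 of neurons and 15 of gonads).

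RDE-4 is a protein that binds double-stranded RNA and hands it to the nuclease Dicer (DCR-1), together with the Argonaute RDE-1 and the Dicer-related helicase DRH-1. Dicer cuts the double-stranded RNA into primary small interfering RNAs, and RNA-dependent RNA polymerases then copy the targeted mRNA into more abundant secondary small RNAs, which other Argonautes carry. Animals without RDE-4 respond poorly to double-stranded RNA. The allele ne299 is a small deletion in the coding sequence and leaves most of the transcribed gene in place, so a count on the gene does not tell mutant from intact transcripts, nor the transgene from the gene at its own place.

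In the groups named after a transgene, the animals carried rde-4(ne299) and a copy of rde-4 behind a promoter active in neurons, joined to yfp by an SL2 element. Strain BFF 14 carried the array pigEx9, with Psng-1::rde-4:SL2:yfp and the muscle marker Pmyo-3::Mcherry. Strain BFF 15 carried the array pigEx10, with Prgef-1::rde-4:SL2:yfp and Punc-122::gfp. Strain BFF 16 carried pigSi3, an integrated transgene with cb-unc-119(+) and Psng-1::rde-4:SL2:yfp. The sample titles mark the array lines HC and BFF 16 SC. The carriers of an array are called P0, and their rde-4(ne299) descendants without the array (labelled BFF 12) F1 and F3. The group pigSi3 F3 holds rde-4(-) descendants, in the F3, of heterozygous BFF 16 animals. The references were rde-4(ne299) mutants (BFF 12) and, for the mutant itself, the wild type N2 Bristol. Whole animals were kept at 20 °C or, in 1 group each of N2 and rde-4, at 25 °C.

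Neurons, by a way of isolation that the labels do not state, came from 3 strains that all carried otIs356, a red nuclear fluorophore behind the rab-3 promoter: BFF 30 (otIs356 alone, called WT here), BFF 31 (rde-4(ne299)) and BFF 32 (rde-4(ne299) with pigSi3). Gonads came from BFF 12, BFF 16, pigSi3 F3 animals, BFF 13 (sid-1(qt9); rde-4(ne299)) and BFF 33 (the same with pigSi3). SID-1 is the channel through which double-stranded RNA enters cells. The animals were adults on the first day of adulthood fed the bacteria OP-50. Each transgenic line stands for 1 transgene insertion or array, and mutants were not given an empty transgene.

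The tables hold HTSeq counts of reads per gene, and levels are given as CPM, counts per 1000000 counts assigned to genes. Depth, as the sum of gene counts in a library, ran between 5972135 and 15765852 for mRNA of neurons and between 2746062 and 36765116 for mRNA of gonads. For small RNA it ran between 735328 and 2530023 in neurons, between 1841973 and 49953667 in gonads and between 1792 and 31077625 in whole animals. The library of 1792 counts, pigEx9 F1 replicate 3, held 1 rde-4 count (558 CPM, exact binomial 95% interval 14.1 to 3105 CPM, counting error only) and says little of the level. By the order of their records the whole animal libraries fall into 6 listed sets, a grouping made here whose meaning no label gives. Where a comparison had rde-4 libraries of its own set, those were its reference. Replicates are not stated to be separate cultures, so a p-value reflects only how far these libraries vary, and that variation may be technical. Differences are log2 fold changes from edgeR's quasi-likelihood test with TMM scaling, with the adjusted p (Benjamini-Hochberg over all genes tested) and a threshold of 0.05.

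In the mRNA of neurons rde-4 was lowest in the mutant, intermediate in WT and highest in the neurons with pigSi3. Neurons with pigSi3 had 327.5, 295.5, 291 and 325 CPM (1956 to 3561 counts). The WT neurons had 18.3, 12.0, 30.5 and 12.3 CPM. Neurons of the rde-4 mutant had 3.43, 1.27, 1.84 and 4.03 CPM, which rest on 18 to 42 counts per library. All 4 libraries of each group stood apart from those of the other groups, and the mutant transcript was detected in every mutant library. The means were 309.9 ± 19.1 CPM with pigSi3, 18.3 ± 8.68 CPM in WT and 2.64 ± 1.30 CPM in the mutant (SD, n = 4 each).

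With pigSi3, rde-4 was 104.7-fold higher than in mutant neurons (95% interval 50.4 to 217.3; log2 6.71, SE 0.492, edgeR adjusted p = 2.08e-05), and it ranked 1 of 12693 genes by both fold and p. In that comparison 0.0236% of the genes passed the threshold, 3 genes with rde-4 among them. Against WT neurons the pigSi3 level was 17.7-fold higher (9.32 to 33.7; log2 4.15, SE 0.433, edgeR adjusted p = 0.000949; 0.37% of genes called). The WT level was 5.90-fold that of the mutant (3.20 to 10.9; log2 2.56, SE 0.412, edgeR adjusted p = 0.0155; 0.433% of genes called). This last call was lost when mutant replicate 1, 2 or 3 was left out, with a log2 difference of 2.25 to 2.76 over all 8 such fits and adjusted p up to 0.0748. In bulk RNA, fewer cells of a type and less RNA per cell cannot be told apart.

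The WT neuron libraries differed in the marker RNA of several tissues. The summed level of 10 neuron markers was 6443, 16284, 4817 and 21777 CPM in WT replicates 1 to 4, against 10141 to 17721 CPM in the mutant libraries, and 19874 to 23062 CPM in those with pigSi3. The 4 markers of body wall muscle summed to 22237, 8638, 19761 and 6637 CPM in the same WT libraries, against 9379 to 14994 CPM in the mutant and 9885 to 11991 CPM with pigSi3. WT replicates 1 and 3, the highest in rde-4, were thus the lowest in neuron markers and the highest in muscle markers. Without them the WT level was still above the mutant's (log2 1.81, edgeR adjusted p = 0.023), and the level with pigSi3 was above WT by 4.89 and above the mutant by 6.70 on the log2 scale. Other tissues' markers differed too. The intestine markers summed to 369, 369.6, 677 and 70.2 CPM in WT replicates 1 to 4, against 88.9 to 123 CPM in the mutant, and to 63.5 to 193 CPM with pigSi3. The hypodermis markers summed to 229, 1089, 1629 and 213 CPM in the same WT libraries, against 121.6 to 352 CPM in the mutant, and to 136 to 195 CPM with pigSi3. WT replicate 4 was thus the WT library with no marker sum of muscle, intestine or hypodermis above the range of the mutant. With it as the only WT library, whose spread is then assumed to be that of the other groups, WT stood 1.96 above the mutant without passing the threshold (edgeR adjusted p = 0.0979), and pigSi3 stood 4.73 above WT (edgeR adjusted p = 0.0344). The part of these markers in the rde-4 difference was not tested. The germline markers summed to 206 to 432 CPM in WT, 139 to 210.5 CPM with pigSi3 and 160 to 318 CPM in the mutant, and those of sperm to 15.1 CPM at most in any neuron library. The gene unc-17, the acetylcholine transporter among the neuron markers, had a count of 0 in every mRNA library, although small RNAs were counted on it. Such a count need not mean that the transcript was absent, and its cause was not tested.

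**Figure D1:**
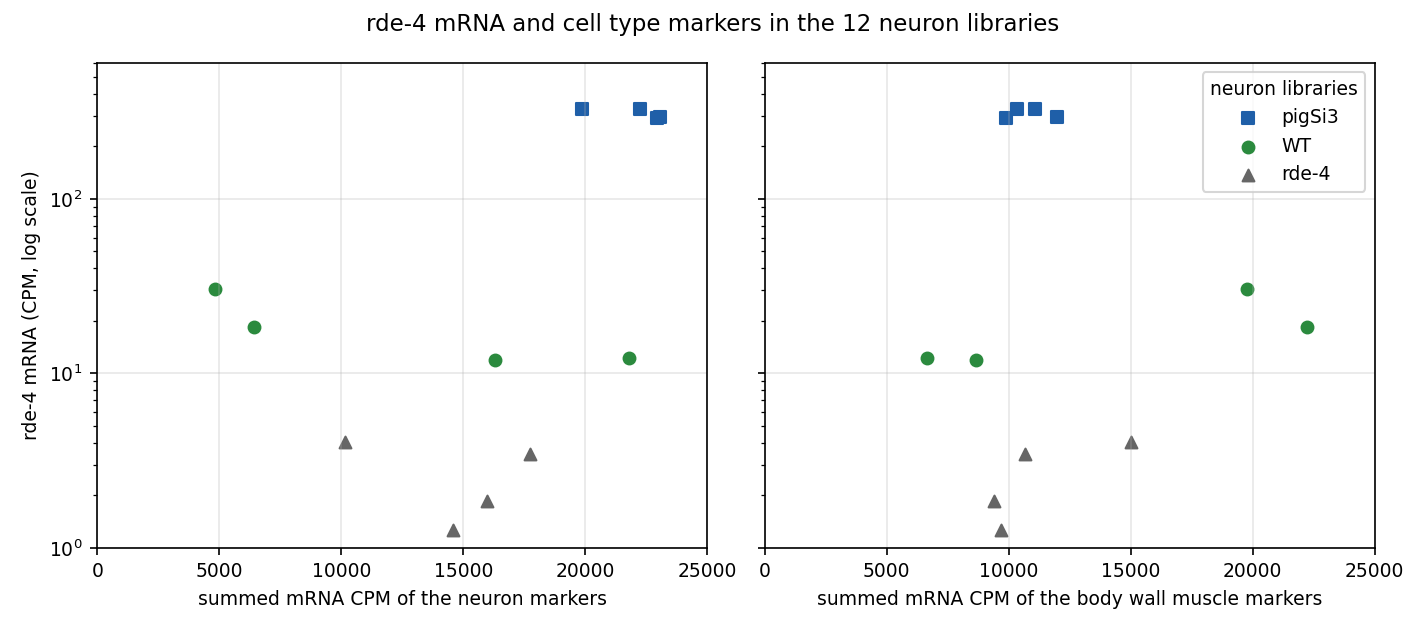
Level of rde-4 mRNA (CPM, log axis) in each library of neurons against the summed level of neuron markers (left) and of body wall muscle markers (right), in CPM. Each point is 1 library with pigSi3, of WT or of the rde-4 mutant. The libraries with pigSi3 lie at 291 to 327.5 CPM, above all others, and the WT libraries spread from 4817 to 21777 CPM in neuron markers.

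In gonads no rise of rde-4 mRNA was detectable with pigSi3. Gonads with pigSi3 had 29.4, 35.3 and 28.6 CPM. Gonads of pigSi3 F3 animals had 31.1, 24.2 and 26.3 CPM. The rde-4 mutant gonads had 37.1, 22.8 and 32.6 CPM, a range that covered all 6 other libraries. With pigSi3 the difference from the mutant was 0.05 (95% interval −0.33 to 0.43, or 0.797-fold to 1.35-fold; edgeR adjusted p = 0.981; 0.483% of genes called), an interval that lies wholly below that of the rise in neurons. For pigSi3 F3 the difference was −0.36 from the mutant (−0.74 to 0.03; edgeR adjusted p = 0.16; 28% of genes called) and −0.41 from pigSi3 gonads (−0.80 to −0.02; edgeR adjusted p = 0.0982; 32.1% of genes called). The pigSi3 F3 gonads also held fewer germline marker transcripts, 5614 to 6636 CPM over 10 genes, against 13074 to 14610 CPM in pigSi3 gonads and 12184 to 13813 CPM in mutant gonads. Their sperm markers summed to 163 to 350.5 CPM, against 3.08 to 97.2 CPM in pigSi3 gonads and 32.8 to 124 CPM in mutant gonads, and their intestine markers to 271 to 923 CPM, against 1226 to 2295 CPM in pigSi3 gonads and 1090.1 to 2110.4 CPM in mutant gonads. The part of these markers in the rde-4 difference was not tested.

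Removing SID-1 made no detectable difference to rde-4 in gonads. Gonads of sid-1; rde-4 with pigSi3 had 27.8, 35.8 and 29.6 CPM, those of sid-1; rde-4 had 39.8, 38.7 and 28.4 CPM, and the 2 ranges overlapped. The difference was −0.24 (−0.63 to 0.15; edgeR adjusted p = 0.561; 0.123% of genes called). Between sid-1; rde-4 and rde-4 gonads it was 0.22 (−0.16 to 0.61; edgeR adjusted p = 0.651; 0.388% of genes called). The pigSi3 difference without SID-1 minus that with SID-1 was −0.33 (−1.23 to 0.56; edgeR adjusted p = 1.0; 0.0414% of genes called), an interval that is wide on the scale of these levels. The fit behind this interval held all 27 mRNA libraries, so the spread of the neuron libraries entered its error. The sid-1 transcript itself, 38.3, 33.8 and 36.4 CPM in sid-1; rde-4 gonads against 81.2, 62.1 and 77.6 CPM in rde-4 gonads, fell by 1.02 on the log2 scale (SE 0.128, edgeR adjusted p = 0.00231).

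The rise with pigSi3 differed between the tissues. The pigSi3 difference in neurons exceeded that in gonads by 6.54 on the log2 scale (SE 0.446, 95% interval 5.62 to 7.46, edgeR adjusted p = 1.67e-09; 0.0759% of genes called). Without the transgene the mutant transcript was lower in neurons than in gonads, with a mean of 2.64 CPM in neurons and 30.8 CPM in gonads, or 8.58% of the gonad level, and the ranges did not overlap. The log2 difference was −2.52 (SE 0.407, −3.40 to −1.63, edgeR adjusted p = 0.000132), in a comparison that called 73.2% of all genes and in which scaling by library totals would move the median of all genes by −1.11. Tissue, the marker otIs356, listed for the neuron strain alone, and the way of isolation differ together between these samples and cannot be told apart. For small RNAs on rde-4 the tested difference between mutant neurons and mutant gonads was small (0.02, −0.38 to 0.41; edgeR adjusted p = 0.949; 29.3% of genes called). In CPM, however, both neuron libraries (76.1 and 78.7) lay below all gonad libraries (82.9 to 115). With library totals in place of TMM the sign of the difference turned, as given at the end.

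**Figure D2:**
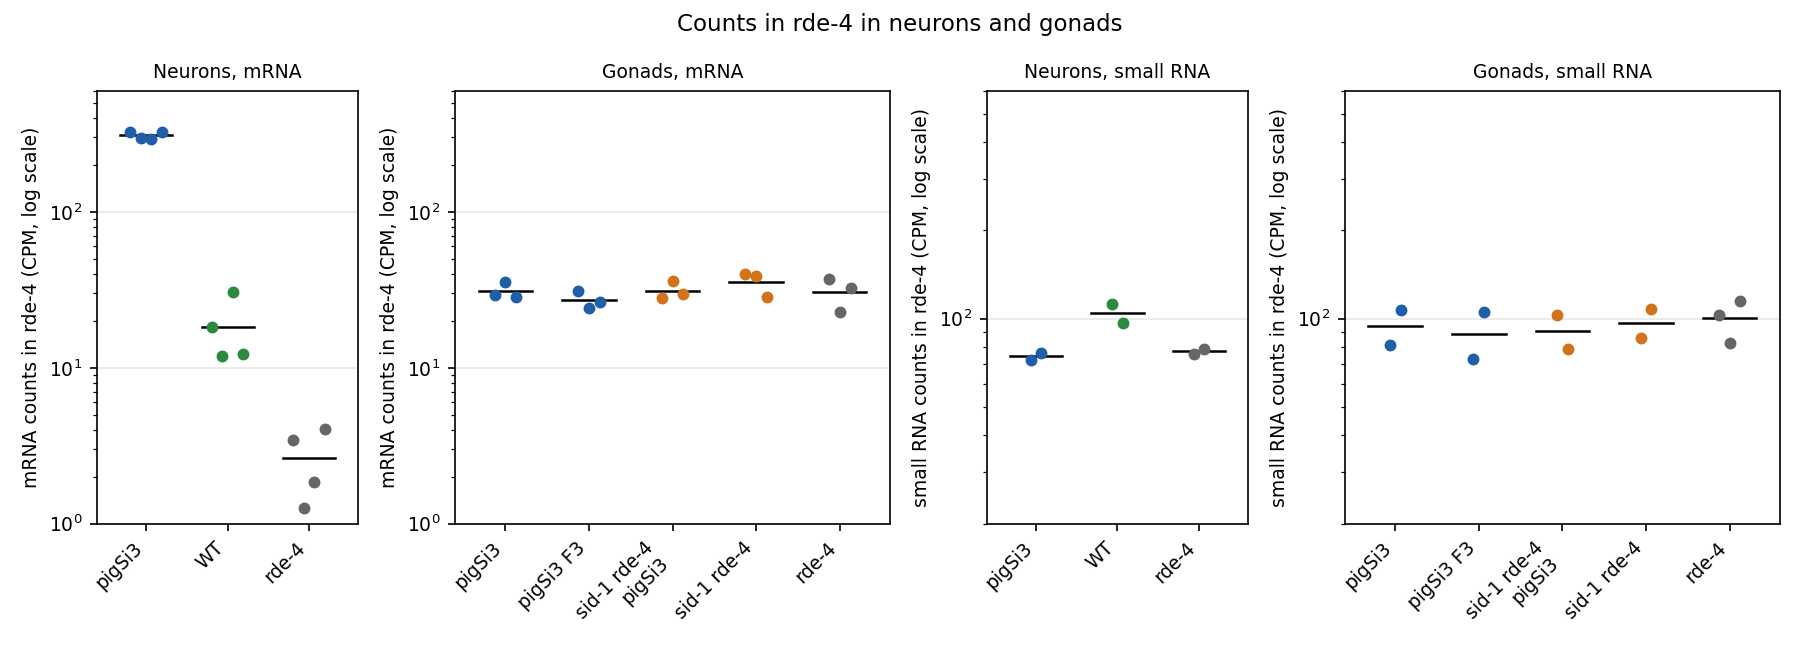
Level of rde-4 in CPM (log axis) in each library of neurons and gonads, for mRNA and for small RNA, by strain. Points are libraries and lines are means. The mRNA of neurons with pigSi3 (291 to 327.5 CPM) stands far above every other mRNA library, while small RNA stays within 72.1 to 115 CPM in all groups.

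The small RNAs that matched rde-4 showed no detectable rise with pigSi3 in either tissue. Neurons with pigSi3 had 72.1 and 76.7 CPM, WT neurons 112 and 97.1 CPM, and mutant neurons 76.1 and 78.7 CPM (53 to 215 counts each). The WT libraries were the highest, and the pigSi3 and mutant libraries overlapped. The difference between pigSi3 and mutant was 0.01 (−0.45 to 0.46, or 0.732-fold to 1.38-fold; edgeR adjusted p = 0.996; 0.955% of genes called), beside the rise in mRNA given above. WT exceeded the mutant by 0.47 (0.03 to 0.91; edgeR adjusted p = 0.305; 3.34% of genes called), and pigSi3 stood 0.46 under WT (log2 −0.46, −0.90 to −0.02; edgeR adjusted p = 0.417; 2.18% of genes called), so neither passed the threshold. Small RNAs on the germline markers summed to 1357 to 1810 CPM in the neuron libraries, against 1701 to 2848 CPM in those of gonads. Those on the neuron markers summed to 312 to 541 CPM in neurons and 232 to 760 CPM in gonads, with overlap. The part of other tissues in the small RNA level of rde-4 in neurons was not tested.

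In gonads the 11 small RNA libraries lay between 72.7 and 115 CPM. Gonads with pigSi3 had 81.5 and 107 CPM, those of pigSi3 F3 had 72.7 and 105 CPM, and the rde-4 mutant had 103, 82.9 and 115 CPM. Gonads of sid-1; rde-4 with pigSi3 had 103 and 79.0 CPM, and those of sid-1; rde-4 had 86.0 and 107.6 CPM. Every group overlapped its reference. The differences were −0.06 for pigSi3 (−0.54 to 0.41; edgeR adjusted p = 0.93; 1.98% of genes called) and 0.05 for pigSi3 F3 (−0.44 to 0.53; edgeR adjusted p = 0.919; 0.165% called). For sid-1; rde-4 with pigSi3 against sid-1; rde-4 the difference was −0.07 (−0.60 to 0.46; edgeR adjusted p = 1.0; 0.573% called). The sid-1; rde-4 level differed from that of rde-4 by −0.00047 (−0.48 to 0.48; edgeR adjusted p = 0.999; 3.31% called).

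In whole animals the small RNAs on rde-4 were more abundant by an order of magnitude in the carriers of both arrays, and not in those of the integrated transgene. Animals with pigSi3 had 91.0, 94.3 and 95.1 CPM. N2 animals had 110.1, 129.7 and 146 CPM. The rde-4 mutants of the same listed set had 114, 102 and 98.0 CPM. The pigSi3 libraries were all below both other groups, and the lowest N2 library lay under the highest mutant library. With pigSi3 the difference from the mutant was −0.17 (−0.40 to 0.06; edgeR adjusted p = 0.425; 5.86% of genes called), and that from N2 was −0.71 (−0.94 to −0.48; SE 0.106, edgeR adjusted p = 0.00101; 22.6% called).

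The small RNAs on the gene were present in every mutant library as well. In N2 they were 1.45-fold those of the mutant (95% interval 1.24 to 1.71; log2 0.54, SE 0.105, edgeR adjusted p = 0.00365), in a comparison in which 31.4% of all genes passed. Scaling by library totals moved the median of all genes by −0.249, and rde-4 then stood at 0.29 with an adjusted p of 0.0696. With all 11 mutant libraries at 20 °C as the reference the difference was 0.19 (edgeR adjusted p = 0.697). The mutants varied more between listed sets than N2 differed from them: rde-4 had 114, 102 and 98.0 CPM in the first set, 92.5 and 117 CPM in the second, 84.0, 80.3 and 78.4 CPM in the third and 223, 223 and 259.6 CPM in the fourth. The mean of the fourth set was 2.91 times that of the third, with no overlap between them.

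Carriers of the array pigEx9 in the listed set 3 had the highest small RNA level of the gene in the study. Those in the listed set 2 overlapped the carriers of pigEx10, given below. In the listed set 2, pigEx9 P0 animals had 3296, 3349 and 3254 CPM, against 92.5 and 117 CPM in the mutants. In the listed set 3, other pigEx9 P0 animals had 6461, 7295 and 5987 CPM, against 84.0, 80.3 and 78.4 CPM in the mutants. All 6 carrier libraries were far above all 5 mutant libraries, and the carriers of the third set above those of the second. The level was 54.9-fold that of the mutants over both sets (36.9 to 81.8; log2 5.78, SE 0.276, edgeR adjusted p = 7.26e-12), and rde-4 ranked 10 of 10767 genes by fold, in a comparison that called 6.78% of the genes. Within a set the difference was 5.01 in the listed set 2 (edgeR adjusted p = 8.12e-11) and 6.48 in the listed set 3 (edgeR adjusted p = 3.49e-07).

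Descendants that had lost pigEx9 had a small part of the level of the carriers. The F1 had 273 and 275 CPM in the 2 libraries that hold a usable depth, and the F3 had 169, 152 and 124 CPM, beside 3296, 3349 and 3254 CPM in P0 and 92.5 and 117 CPM in the mutants of the listed set 2. Every library of P0 was above the F1, both of these F1 libraries were above the F3, and all F3 libraries were above both mutant libraries. The F1 mean was 8.31% of the P0 mean and 2.62 times the mutant mean. The F3 mean was 4.50% of the P0 mean and 1.42 times the mutant mean.

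The fall between P0 and F1 was −4.04 (SE 0.370, edgeR adjusted p = 8.32e-07; 0.474% of genes called), and −3.67 within the listed set 2. The F1 remained above the mutants by 1.74 (SE 0.305, 1.11 to 2.38, or 3.35-fold; edgeR adjusted p = 0.0137), in a comparison that called 0.176% of the genes. That call was lost without F1 replicate 1 (1.70, adjusted p = 0.170) or without F1 replicate 2 (1.74, adjusted p = 0.162), either of which leaves 1 deep library and the shallow one. Within the listed set 2 and without the shallow library the difference was 1.34 (edgeR adjusted p = 0.000671). The fits over both sets carry 1 term for the set, shared by all groups. Between the listed sets 2 and 3 the P0 mean went from 3299.7 to 6581 CPM and the mutant mean from 104.8 to 80.9 CPM. Such a term follows neither group, and it enters the values of the F1 and F3, which are in the listed set 2 alone. For the F3 the ratio of means to the mutants within that set was 1.42. The F3 stood 0.92 above the mutants (0.33 to 1.52; edgeR adjusted p = 0.428; 0.0557% of genes called), and 0.82 below the F1 (log2 −0.82, −1.49 to −0.15; edgeR adjusted p = 1.0; no gene passed, with 0% called), so neither of these passed the threshold.

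**Figure D3:**
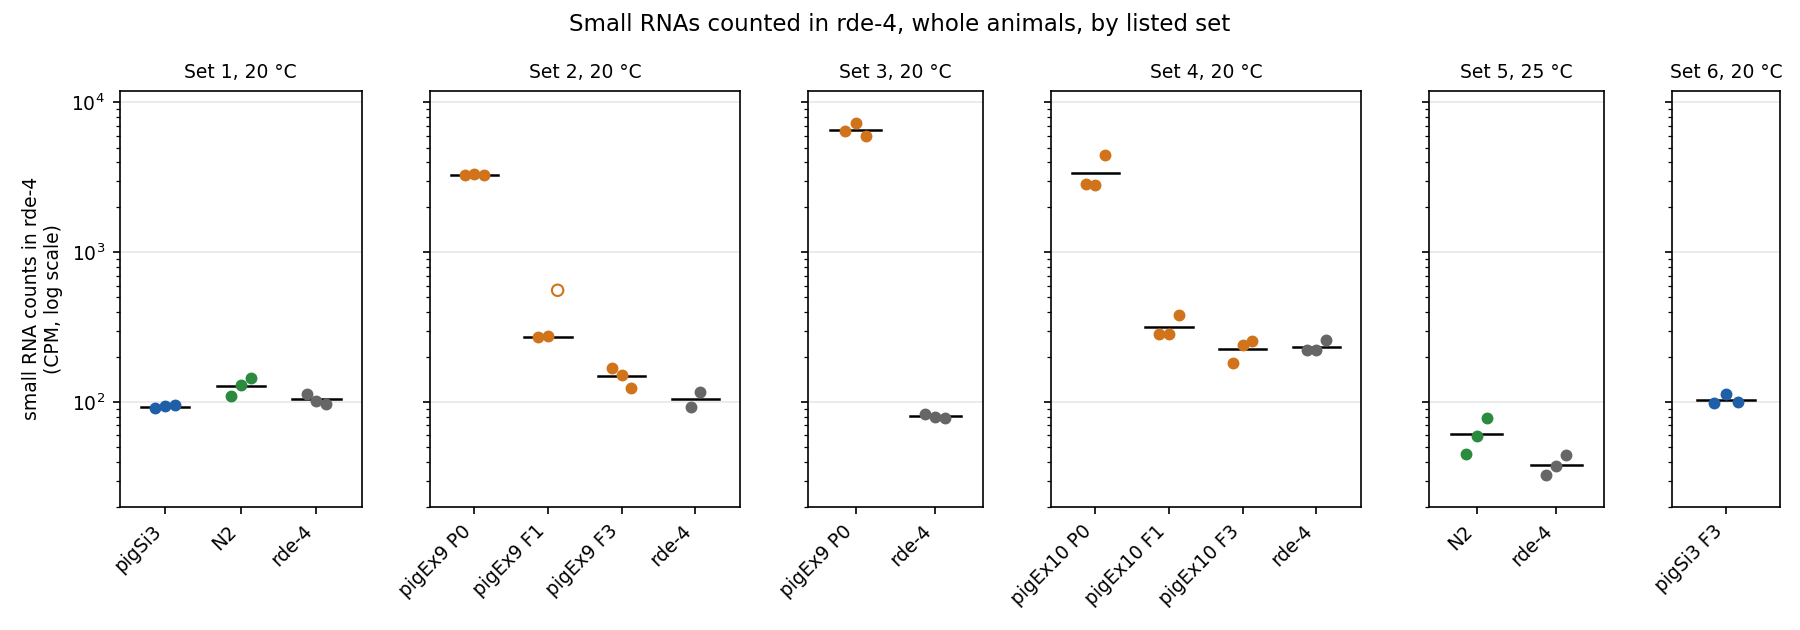
Small RNA level of rde-4 in CPM (log axis) in each whole animal library, by group, with 1 panel for each listed set. Points are libraries, lines are means, and the open point is the library of 1792 counts, left out of the mean. Carriers of the arrays lie at 2808 to 7295 CPM. Their F1 lie at 273 to 383 CPM apart from the library of 1792 counts, and the F3, pigSi3, N2 and mutant libraries at 20 °C lie between 78.4 and 259.6 CPM.

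The array pigEx10, with another promoter, gave a smaller rise over the mutants of its own set, which were the highest of all mutants. Its descendants passed no test against these mutants. Its P0 animals had 2863, 2808 and 4450 CPM, its F1 had 287, 286 and 383 CPM and its F3 had 184, 240.6 and 258 CPM, beside 223, 223 and 259.6 CPM in the mutants of the listed set 4. All P0 libraries stood apart, the F1 libraries were all above the mutants, and the F3 overlapped the mutants. In P0 the level was 14.5-fold that of the mutants (10.4 to 20.2; log2 3.86, SE 0.219, edgeR adjusted p = 4.54e-07), and rde-4 ranked 64 of 11252 genes by fold with 1.8% called. The summed small RNAs on the 4 muscle markers were higher in the carriers as well. In pigEx10 P0 the sums were 985, 922 and 1275 CPM, against 86.5 to 134 CPM in its F1 and 152 to 209 CPM in the mutants of the set. In pigEx9 P0 they were 207 to 363 CPM, against 94.8 to 137 CPM in the mutants of its sets. In pigEx10 P0 nearly all of the sum lay on unc-54, the main muscle myosin gene, named after its values were seen. It had 921, 851 and 1238 CPM there against 80.8, 151 and 133 CPM in the mutants. For lev-11, a tropomyosin gene among the same markers, the groups overlapped, with 63.2, 70.7 and 36.0 CPM in pigEx10 P0 against 71.1, 57.5 and 59.7 CPM in the mutants. In pigEx9 P0 unc-54 had 118 to 279 CPM against 2.85 to 45.1 CPM in the mutants of its sets. There lev-11 had 73.1 to 102 CPM against 54.6 to 125 CPM, with overlap. The markers myo-3 and unc-15 had at most 1.50 CPM in the carriers of either array. The part of these markers in the rde-4 difference was not tested. The F1 fell by 3.43 relative to P0 on the log2 scale (SE 0.214, edgeR adjusted p = 1.33e-06; 0.773% called), to a mean that was 9.45% of that of P0.

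The pigEx10 F1 stood 0.43 above the mutants (−0.01 to 0.86; edgeR adjusted p = 0.865; 0.355% of genes called), a ratio of means of 1.36. The F3 differed from the mutants by −0.05 (−0.49 to 0.38; edgeR adjusted p = 0.997; 0.355% called) and from the F1 by −0.48 (−0.91 to −0.05; edgeR adjusted p = 1.0; 0% called). With all 11 mutant libraries as the reference the F1 difference was 1.21 (edgeR adjusted p = 0.124) and that of the F3 was 0.74. The mutants of the listed set 4 were themselves the highest of all mutant libraries, as given above.

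The transgenes were compared with each other through their differences from mutants of their own sets. That of pigEx9 exceeded that of pigEx10 by 2.00 (SE 0.288, 1.42 to 2.59, edgeR adjusted p = 2.81e-05; 5.33% of genes called), and by 1.07 with pigEx9 of the listed set 2 alone (edgeR adjusted p = 0.00719) or 2.66 with that of the listed set 3 alone (edgeR adjusted p = 3.66e-07). The pigEx9 difference exceeded that of pigSi3 by 6.0 (SE 0.313, edgeR adjusted p = 4.85e-16; 6.16% called). Both place rde-4 behind the sng-1 promoter, but pigEx9 is an array, marked HC in the sample titles. The transgene pigSi3 is integrated and marked SC, and the part of this in the gap was not tested. Each of these contrasts sets different listed sets against each other, and transgene and set cannot be told apart. Whole animal mRNA was not analysed here, so the transcript behind the arrays has no measured level.

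**Figure D4:**
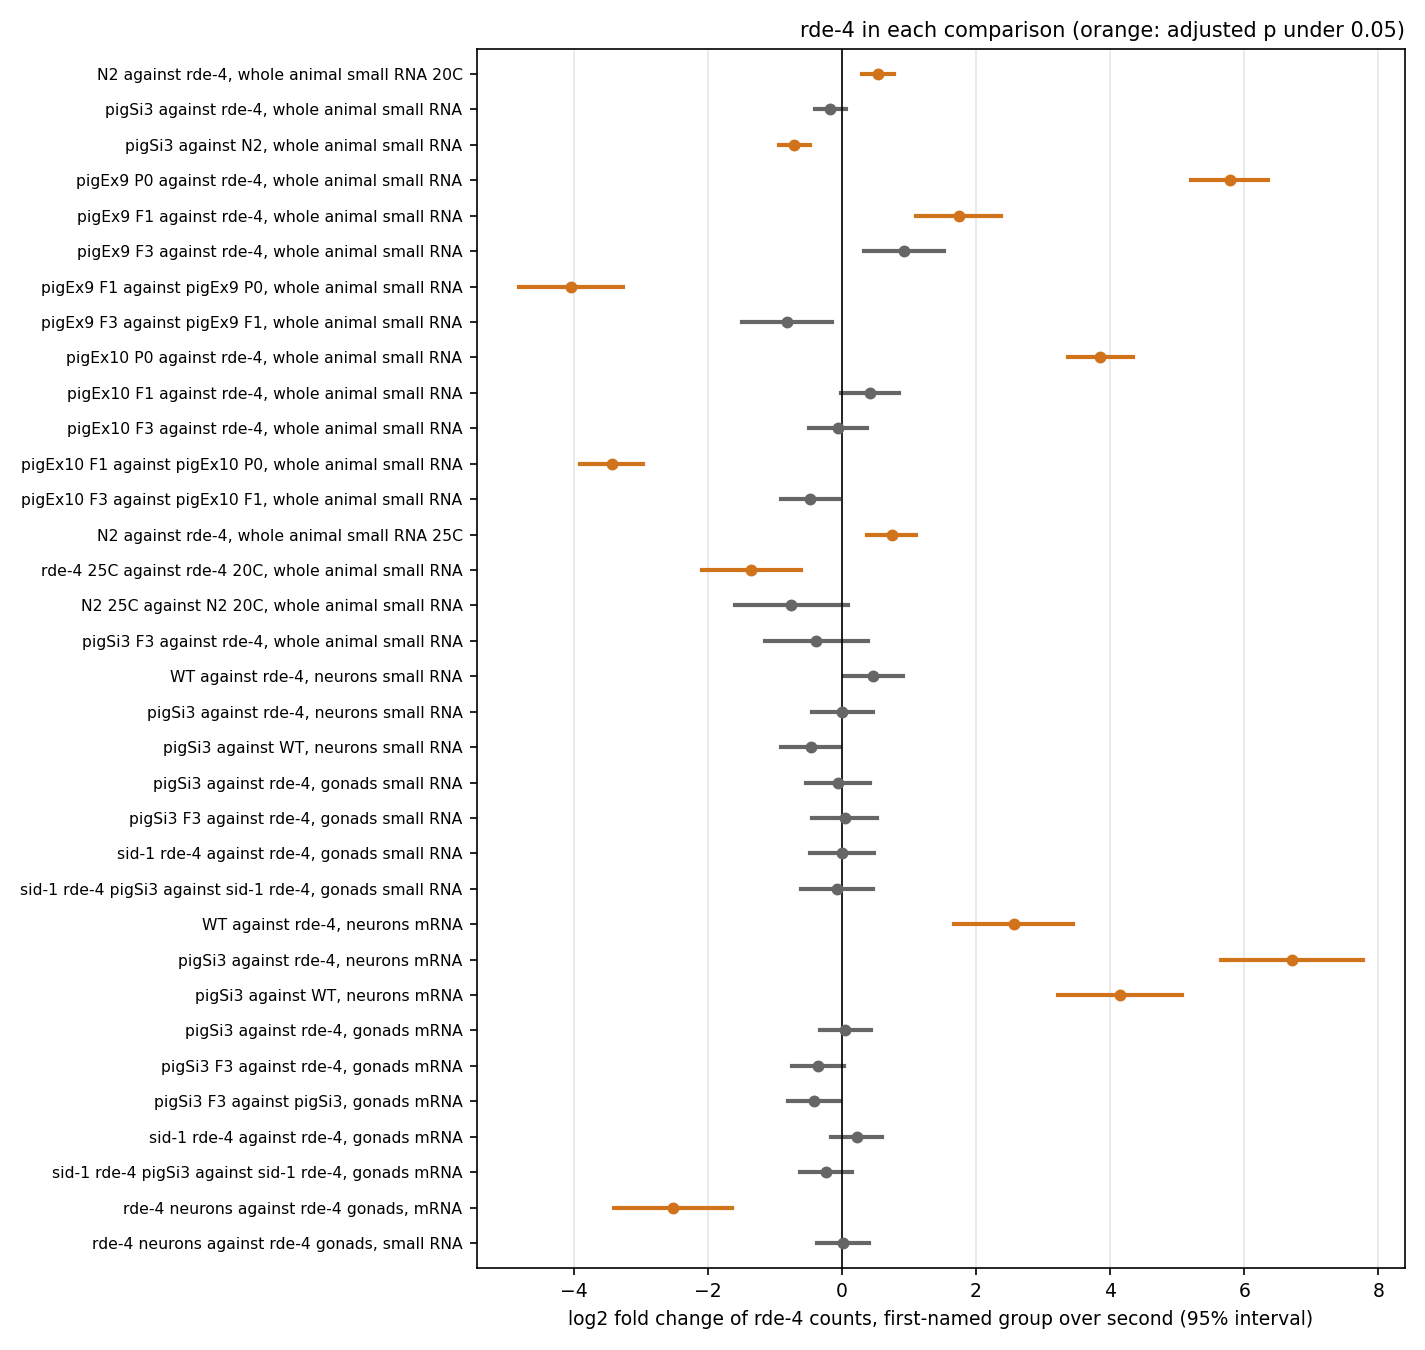
Log2 fold change of rde-4 with its 95% interval in each comparison of 1 group with another, for small RNA and mRNA; differences between such differences are not drawn. The vertical line marks no difference, and orange marks an adjusted p under 0.05. The intervals of the array carriers (3.38 to 6.35) and of neuron mRNA with pigSi3 (5.66 to 7.76) lie far to the right, and those drawn for gonads against gonads lie between −0.80 and 0.61.

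Descendants of pigSi3 carriers did not differ detectably from mutants in whole animals. The pigSi3 F3 had 98.2, 113 and 101 CPM, within the range of the mutants over all sets and overlapping those of the listed set 1. The difference was −0.38 (−1.14 to 0.39; edgeR adjusted p = 0.696; 0.0172% of genes called) against mutants of all sets and −0.02 against those of the listed set 1. These F3 libraries form a listed set of their own, which cannot be told apart from the group.

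At 25 °C the small RNAs on rde-4 were lower. N2 at 25 °C had 45.5, 59.8 and 78.1 CPM, against 110.1, 129.7 and 146 CPM at 20 °C, with no overlap. The mutant at 25 °C had 32.5, 37.3 and 44.6 CPM, all below the 78.4 to 259.6 CPM of the 11 mutant libraries at 20 °C. The mutant's level fell by 1.35 on the log2 scale (SE 0.355, −2.09 to −0.61, edgeR adjusted p = 0.0038; 48.6% of genes called), and by 1.01 against the listed set 1 alone (edgeR adjusted p = 9.39e-05). Scaling by library totals moved the median of all genes by −0.458 there. In N2 the difference was −0.75 (−1.59 to 0.09; edgeR adjusted p = 0.173; 29.8% called). The fit behind it held all 11 mutant libraries at 20 °C without a term for the set. The spread between mutant sets thus entered its error, and N2 was not fitted with the listed set 1 alone. The libraries at 25 °C form a set of their own, so temperature and set cannot be told apart.

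Within 25 °C, N2 exceeded the mutant by 0.74 (SE 0.161, 0.38 to 1.11, edgeR adjusted p = 0.0174; 16.5% of genes called), and no mutant library reached the lowest N2 library. The ratio of means was 1.60. The call was lost without N2 replicate 2, mutant replicate 1 or mutant replicate 2. The excess of N2 over the mutant at 25 °C minus that at 20 °C was 0.31 (−0.08 to 0.70; edgeR adjusted p = 0.408; 4.02% of genes called), which does not show a difference between temperatures.

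Ordered by mean small RNA level in whole animals, the groups ran 38.1 CPM in the mutant at 25 °C, 61.1 in N2 at 25 °C, 80.9 in the mutants of the listed set 3, 93.5 with pigSi3, 104.2 in pigSi3 F3, and 104.7 and 104.8 CPM in the mutants of the listed sets 1 and 2. Above these came 128.5 CPM in N2, 149 in pigEx9 F3, 227 in pigEx10 F3, 235 in the mutants of the listed set 4, 274 in pigEx9 F1 and 319 in pigEx10 F1. The carriers closed the order with 3299.7 CPM in pigEx9 P0 of the listed set 2, 3373 in pigEx10 P0 and 6581 in pigEx9 P0 of the listed set 3. Libraries of neighbours overlapped between pigSi3 F3 and the mutants of the listed set 1, between the listed sets 1 and 2, between the listed set 2 and N2, between N2 and pigEx9 F3, between pigEx10 F3 and the mutants of the listed set 4, and between the 2 lower carrier groups. Comparisons that share mutant libraries are not independent, and their values stand side by side only.

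The genes next to rde-4 on chromosome III were mostly level in the carriers. RefSeq annotates no gene that overlaps it, and the nearest are cts-1 (citrate synthase) and best-18 (a bestrophin chloride channel) on the left, and cox-14 and Y70G10A.4 on the right, of which the last has no entry in the tables. In P0, cts-1 differed from the mutants by 0.15 with pigEx9 and 0.01 with pigEx10 (edgeR adjusted p = 0.461 and 0.976), and cox-14 by 0.15 and −0.01 (edgeR adjusted p = 0.378 and 0.979). The exception was best-18, at 14.7, 23.9 and 14.4 CPM in pigEx9 P0 of the listed set 2 and 1.11, 1.56 and 0.746 CPM in that of the listed set 3, against 0.896 and 0.28 CPM, and 0, 0.526 and 0.238 CPM, in the mutants of these sets. Its F1 had 10.8 and 16.7 CPM and its F3 2.66, 2.18 and 6.58 CPM. It rose by 3.95 in P0 (SE 0.559, edgeR adjusted p = 0.000137) and by 3.62 in the F1 (edgeR adjusted p = 0.0137), while the F3 difference was 2.05 (edgeR adjusted p = 0.445) and that of pigEx10 P0 was 1.04 (edgeR adjusted p = 0.493).

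The genes whose promoters drive the transgenes were read as another measure of the arrays. Small RNAs on rgef-1, a neuronal exchange factor for Ras family proteins, had 75.9, 85.6 and 133 CPM in pigEx10 P0 against 0.346, 0.437 and 0 CPM in the mutants. They rose by 8.26 (SE 0.412, edgeR adjusted p = 9.64e-08) and fell by 7.56 between P0 and F1 (edgeR adjusted p = 8.70e-08). For unc-122, expressed in coelomocytes, pigEx10 P0 had 10.2, 11.4 and 15.6 CPM against 2.42, 2.51 and 2.93 CPM in the mutants, a rise of 2.25 (edgeR adjusted p = 0.00361). In pigEx9 P0, whose labels list no unc-122 sequence, it fell by 2.03 (edgeR adjusted p = 0.00682).

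The sng-1 promoter, which drives rde-4 in pigEx9 and pigSi3, left no such signal on its own gene. Small RNAs on sng-1, a synaptic vesicle protein, stayed at 0 to 1.17 CPM in all libraries and failed the filter on low counts, and in neuron mRNA sng-1 differed by −0.19 between pigSi3 and mutant (edgeR adjusted p = 0.848). Those on myo-3, the muscle myosin gene of the pigEx9 marker, were 0.553 to 1.50 CPM in P0 against 0 to 0.757 CPM in the mutants and also failed the filter. In neurons, where all groups carry the rab-3 promoter in otIs356, small RNAs on rab-3 were 1738 and 1070 CPM with pigSi3, 1697 and 2001 CPM in WT, and 485 and 373 CPM in the mutant. They rose by 1.76 with pigSi3 (SE 0.198, edgeR adjusted p = 8.22e-05) and were 2.14 higher in WT (SE 0.200, edgeR adjusted p = 2.61e-06), while pigSi3 differed from WT by −0.38 (edgeR adjusted p = 0.505).

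**Figure D5:**
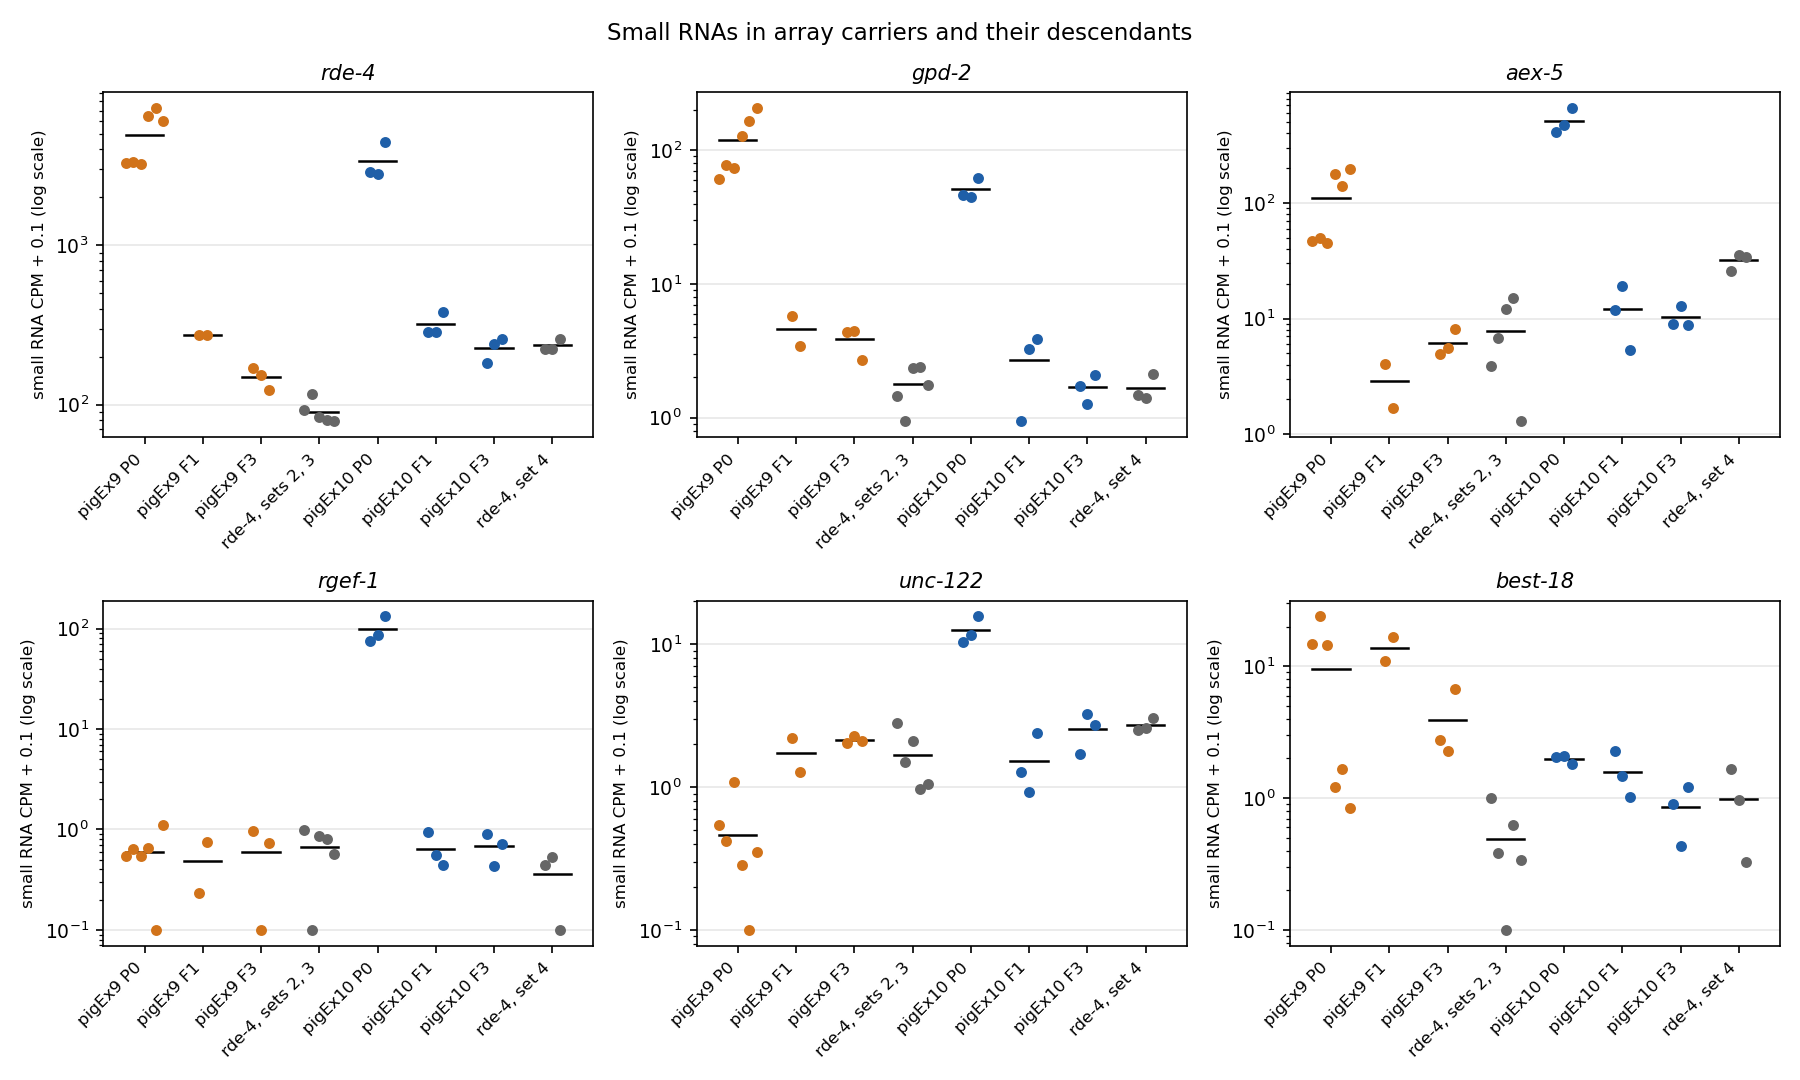
Small RNA level (CPM + 0.1, log axes) of rde-4, of gpd-2 and aex-5, of the promoter genes rgef-1 and unc-122 and of the neighbour best-18, in each library of P0, F1, F3 and the mutants, for pigEx9 and pigEx10. Points are libraries and lines are means, without the library of 1792 counts. rgef-1 is high in pigEx10 P0 alone (75.9 to 133 CPM), while rde-4 and gpd-2 are high in P0 of both arrays.

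Across the 12 groups of whole animal small RNA, the 5 genes most like rde-4 by Pearson's r of log2(group mean CPM + 1), among 9350 genes, each with a mean of at least 5 CPM in its highest group, were gpd-3 (0.947), gpd-2 (0.940), aex-5 (0.906), R193.3 (0.845) and nhr-101 (0.844). These were chosen for their likeness, so their levels are a description. With 6.04 CPM for gpd-3 and 5.24 CPM for R193.3 as the highest group mean, both just passed that minimum, and only through pigEx10 P0, where rde-4 was high too. In pigEx9 P0 gpd-2 had 60.5, 78.1 and 73.9 CPM in the listed set 2 and 129, 165 and 208 CPM in the listed set 3, its F1 had 5.65 and 3.32 CPM and its F3 4.30, 4.36 and 2.59 CPM, against 0.84 to 2.28 CPM in the mutants of these sets. In pigEx10 P0 gpd-2 had 46.6, 44.7 and 61.5 CPM against 1.38, 1.31 and 2.03 CPM in the mutants. Both gpd genes encode glyceraldehyde-3-phosphate dehydrogenase and are near-identical copies, so how reads were divided between them is uncertain. The gene aex-5, a proprotein convertase, had 408, 473 and 669 CPM in pigEx10 P0 against 26.0, 35.3 and 34.0 CPM in the mutants. A count does not tell a gene at its own place from the same sequence in an array. Whether the arrays hold sequence counted on gpd-2, gpd-3 or aex-5 was not tested, so a gain at the genes' own places is not shown. Over the 8 mRNA groups and 11327 genes the most alike were unc-101 (0.930), Y57G11C.9 (0.927), utx-1 (0.919), F31A3.5 (0.919) and F28C10.3 (0.917), all with their highest mean in neurons with pigSi3. These too were chosen for their likeness, and in each the libraries with pigSi3 overlapped those of WT neurons. For utx-1, 31.7 to 36.8 CPM with pigSi3 stood beside 39.9 CPM in WT replicate 4. The means of unc-101 were 17.2 CPM with pigSi3 and 6.72 CPM in mutant neurons, beside 309.9 and 2.64 CPM for rde-4.

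The other genes of the pathway were read from lists of 42 members in the small RNA tables and 45 in the mRNA tables. In pigEx9 P0 0 of 41 tested members passed, beside 6.78% of all genes (1 at an unadjusted p under 0.05, beside 18.4% of all genes, and 0 by DESeq2), and in pigEx10 P0 0 of 40, beside 1.8% (2 unadjusted, beside 11.5%, and 1 by DESeq2). In F1 and F3 of both arrays 0 passed, where at most 0.355% of all genes did, so these counts say little of the members. For pigEx9 0 passed unadjusted in each generation, beside 7.18% of all genes in the F1 and 4.69% in the F3, and 0 by DESeq2. For pigEx10 1 passed unadjusted in the F1, beside 5.83% of all genes, and 0 by DESeq2. In its F3 4 passed unadjusted, beside 6.1%, and 1 by DESeq2. In neurons with pigSi3 0 of 42 passed for mRNA, beside 0.0236% of all genes (13 unadjusted, beside 8.81%, and 2 by DESeq2), and 0 of 37 for small RNA, beside 0.955% (0 unadjusted, beside 6.49%, and 0 by DESeq2). At these shares the adjusted counts say nothing of the members. The DESeq2 counts of members, here and below, stand without a share over all genes and are not read further.

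Between N2 and the mutant at 20 °C 31% of the members passed, near the background of 31.4% of all genes. There 10 of 42 members were higher in N2 and 3 lower, beside 14.5% of all genes higher and 16.9% lower, and the median was 0.21. The higher ones included rsd-2 (0.67, edgeR adjusted p = 0.00015) and rsd-6 (0.43, edgeR adjusted p = 0.00749), which are needed for systemic or germline RNAi, eri-6 (0.74, edgeR adjusted p = 0.000644), a helicase of the endogenous pathway, and mut-2 (0.49, edgeR adjusted p = 0.00246), a nucleotidyltransferase. Lower in N2 were drh-2 (−1.86, edgeR adjusted p = 0.00148), a Dicer-related helicase, sid-2 (−2.22, edgeR adjusted p = 0.00229), which takes up double-stranded RNA from the gut, and rsd-3 (−0.43, edgeR adjusted p = 0.0425), needed for its import into cells. With pigSi3 in whole animals 0 of 42 members were higher and 2 lower than in the mutant, beside 1.92% of all genes higher and 3.94% lower, again drh-2 (−1.30, edgeR adjusted p = 0.0294) and sid-2 (−1.81, edgeR adjusted p = 0.0199).

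The libraries of these 2 genes give the levels behind these calls. For sid-2 the libraries with pigSi3 had 1.13, 3.67 and 3.06 CPM, those of N2 0.995, 2.06 and 1.96 CPM and those of the mutant 7.90, 11.9 and 7.67 CPM. For drh-2 they had 6.06, 10.8 and 10.1 CPM with pigSi3, 4.78, 5.41 and 5.12 CPM in N2 and 32.9, 15.4 and 17.4 CPM in the mutant. The mutant libraries were the highest for both genes with no overlap. Between pigSi3 and N2 neither passed, with 0.41 for sid-2 (edgeR adjusted p = 0.504) and 0.56 for drh-2 (edgeR adjusted p = 0.211), and for sid-2 these libraries overlapped. At 25 °C 3 of 40 members were higher in N2 and 3 lower, beside 6.97% and 9.54% of all genes, with mut-2 (0.90), rsd-2 (0.83) and sid-1 (0.90, edgeR adjusted p = 0.0476) higher and eri-5 (−0.73, edgeR adjusted p = 0.0308), drh-2 (−2.01, edgeR adjusted p = 0.0338) and eri-3 (−1.14, edgeR adjusted p = 0.0449) lower.

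In gonad mRNA with pigSi3 0 of 44 members passed, beside 0.483% of all genes (3 unadjusted, beside 6.34%, and 0 by DESeq2), for sid-1; rde-4 with pigSi3 0 of 44 passed, beside 0.123% (3 unadjusted, beside 15.3%, and 0 by DESeq2), and for sid-1; rde-4 against rde-4 sid-1 itself, given above, was lower (1 of 44, beside 0.246% of all genes lower and 0.142% higher). In pigSi3 F3 gonads 1 member was higher than in the mutant, mut-2 (0.67, edgeR adjusted p = 0.00865), and 12 of 44 were lower, beside 13.6% of all genes higher and 14.4% lower; together 29.5% of the members passed, near the 28% of all genes. Among these were rde-10 (−1.58), mut-15 (−1.61), the Argonaute ppw-2 (−1.09) and the nuclear Argonaute hrde-1 (−0.72). The lower germline marker level of these libraries stands beside that count, and its part in it was not tested.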

How the data were processed

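The 91 tables hold raw counts of reads per gene, whole numbers that the authors made with HTSeq after trimming with cutadapt and quality checks with FastQC against genome build ce10, per the submitters' processing notes. Which of the 2 small RNA kits made a library, the aligner, the annotation and the use of strand are not given by the sources used here. RNA was extracted with TRIZOL and mRNA libraries were made with Nextera XT, per the labels' protocols. Reads in no gene, 22.2 to 56.4% in whole animals, 61.4 to 71.4% in neuron and 17.3 to 22.9% in gonad small RNA, and 47.5 to 54.2% in mRNA, stayed out of library sizes.

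Levels are plain CPM. Differences come from edgeR 4.0.16 (filterByExpr, TMM, robust quasi-likelihood F test, Benjamini-Hochberg adjustment over all genes tested) in R 4.3.3, with the listed set as a term for pigEx9. The standard error is the log2 fold change over the square root of F. Alternatives were library totals, DESeq2 1.42.0, no filter on low counts, each library left out, the replicate number as a block, single listed sets and all mutant libraries as reference. Library totals in place of TMM moved the median log2 difference of all genes by 0.33 for WT and 0.20 for pigSi3 in neuron mRNA, 0.26 for pigSi3 against N2, −0.33 for N2 between temperatures, −0.12 for pigEx9 against pigEx10 and −0.10 against pigSi3, −0.18 and 0.18 for pigSi3 F3 against rde-4 in gonad small RNA and mRNA, 0.22 for pigSi3 F3 against pigSi3 in gonads, −0.39 for mutant neurons against gonads in small RNA, 0.35 for the pigSi3 effect between tissues and, for the others not given in the text, by under 0.1. The scripts were tested on simulated counts. Names were matched to RefSeq WBcel235 for 21305 of 21965 and 29754 of 30199 genes. Its coordinates served to find the genes next to rde-4 or overlapping it, and none are printed. The count intervals cover counting error only. The gene, the lists, the markers and the tests were chosen with earlier results of these data known. Genes were named by a rule: up to 4 list members per direction with the smallest adjusted p under 0.05, the promoter genes, the 2 nearest genes on each side and the 5 most alike. The 2 WT neuron libraries left out as an alternative, WT replicate 4 as the only WT library, the effects of pigEx9 by single set, the single-set fits without the shallow library and the differences between effects under each alternative were added after the data were seen. Replicate numbers paired the samples, with every pair's deviations correlating above 0.1, for pigSi3 against rde-4 (0.134 to 0.329), pigSi3 against N2 (0.201 to 0.394) and pigEx10 F1 against P0 (0.244 to 0.684) in whole animals.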

Additional observations from a re-analysis of the deposited data

Results flagged for a closer look

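The difference of pigEx9 P0 from the mutants exceeded that of pigEx10 P0 by 2.00 on the log2 scale in the small RNAs on rde-4 (SE 0.288, edgeR adjusted p = 2.81e-05), and the test of the difference itself drew attention to it. All carrier libraries of both arrays lay above all mutant libraries of their sets. The size depended on the set: 1.07 with pigEx9 of the listed set 2 alone and 2.66 with the listed set 3 alone. The set 2 carriers averaged 3299.7 CPM and those of pigEx10 3373 CPM, while the mutants of the listed set 4 averaged 235 CPM, against 104.8 and 80.9 CPM in the listed sets 2 and 3. Array and set cannot be told apart.

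In the same way, the difference of pigEx9 P0 exceeded that of pigSi3 by 5.998 (SE 0.313, edgeR adjusted p = 4.85e-16). The pigEx9 P0 libraries lay at 3254 to 7295 CPM and those of pigSi3 at 91.0 to 95.1 CPM.

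For rde-4 mRNA the difference made by pigSi3 was larger in neurons than in gonads by 6.54 (SE 0.446, edgeR adjusted p = 1.67e-09). It was 6.71 in neurons and 0.05 in gonads. In no group of 4 to 10 libraries did a library stand apart from the others by Dixon's criterion.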

How the results depend on the processing

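Of 39 comparisons of rde-4, 16 passed the threshold, and 12 of these kept direction and call under every alternative run; none of the 16 changed direction. Scaling by library totals gave 0.29 for N2 at 20 °C and 0.68 for N2 at 25 °C (both calls lost), and, with the sign turned among differences that had passed no threshold, −0.051 for pigSi3 in neuron small RNA, −0.15 for pigSi3 F3 in gonad small RNA and −0.37 for mutant neurons against gonads in small RNA, where no filter on low counts gave −0.094. With all 11 mutant libraries, N2 at 20 °C gave 0.19, pigEx9 F1 0.97 (calls lost) and pigEx10 F3 0.74. pigEx9 F1 without the set term gave 1.49 (adjusted p = 0.144). For sid-1; rde-4 in gonad small RNA DESeq2 gave 0.0031, no filter 0.010. The replicate block gave 0.085 there, 0.025 for pigSi3 in gonad small RNA and 2.51 for WT in neuron mRNA (adjusted p = 0.0606, call lost; numbers there share only a label, with correlations of −0.423 to 0.203), and it changed no other call. Crossing the numbers gave 441 calls, against 185 as numbered and 164 without a block, for pigSi3 against WT in neuron small RNA, and 41, 41 and 66 for sid-1; rde-4 with pigSi3 in gonad small RNA. WT replicate 4 as the only WT library gave 1.96 for WT in neuron mRNA (adjusted p = 0.0979, call lost). Leaving out 1 library at a time gave 1.68 to 2.02 for pigEx9 F1, 0.66 to 0.88 for N2 at 25 °C, 2.25 to 2.76 for WT in neuron mRNA, −0.52 to −0.15 for pigSi3 F3 in gonad mRNA (passing without rde-4 replicate 2, adjusted p = 0.048), −0.11 to 0.20 for pigSi3 in gonad mRNA, −0.13 to 0.064 for pigEx10 F3, −0.085 to 0.11 for pigSi3 in neuron small RNA, −0.069 to 0.18 for mutant neurons against gonads in small RNA, and in gonad small RNA −0.22 to 0.10 for pigSi3, −0.41 to 0.33 for pigSi3 F3, −0.14 to 0.16 for sid-1; rde-4 and −0.24 to 0.085 for sid-1; rde-4 with pigSi3. The cause of these changes was not tested. Depth limits neuron small RNA (53 to 215 rde-4 counts) and mutant neuron mRNA (18 to 42).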
